A study of Mus musculus with 18 samples.

Results

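Total RNA of mouse cortex and striatum was compared between CPEB4 KO animals and WT animals, across all genes of the arrays. The comparison uses the 4 INPUT arrays of these genotypes, 2 animals each, out of 18 arrays in all. The mice were 6 weeks old, and part of each RNA was passed over poly(U) agarose, which gave a WASH fraction (mostly short poly(A) tails) and an ELUTED fraction (mostly long ones). INPUT is the RNA before that split. The groups were CPEB4 KO (2 animals), then CPEB4 GT/+ (2 animals with, by the notation of the label, a GT allele beside a wild-type one) and WT (2 animals). All 3 groups share tissue, age and housing, and the labels name no treatment. Neither the construction of the alleles nor the strain or sex of the animals is given in the sources used here. The labels number the replicates and give n as the number of mice, so the spread measured here is that between 2 animals of a group.

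CPEB4 is an RNA-binding protein of the cytoplasmic polyadenylation element binding family. These proteins bind U-rich elements in the 3' ends of mRNAs and control the length of the poly(A) tail, and with it translation and decay. In mouse liver CPEB4 is known to maintain translation during the unfolded protein response (UPR), the program by which cells sense misfolded protein in the endoplasmic reticulum (ER) and raise its chaperones; in the brain it is known for binding the mRNAs of many autism risk genes. INPUT levels report RNA abundance, not tail length or translation. In tissue RNA, fewer cells of a type and less RNA per cell cannot be told apart.

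Values are log2 array intensities. A gene was read from its brightest probe set, and 12823 of 17097 genes were kept after the dimmest 25% were left out. The array medians lay between 6.32 and 6.48. The highest mean among 23 nonspecific control probe sets was 6.72, so genes near or below that level may be measured with compressed differences. Differences were tested with limma over 6 INPUT arrays, and a gene was called at an adjusted p under 0.05 (Benjamini-Hochberg over all genes kept). An exact permutation test of 2 animals against 2 cannot give a p below 0.333.

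The INPUT array of CPEB4 KO animal 1 stood apart from all others. Its correlation with the other INPUT arrays across genes was 0.971 to 0.973, and that among the other 5 was 0.989 to 0.994. It carried a set of hepatocyte transcripts, a list assembled after these values were seen. Of 33 hepatocyte genes measured, 30 were at least 1 log2 unit above the WT INPUT mean on this array and 0 were on each of the other 17 arrays. The median of the list was 9.59 in CPEB4 KO animal 1 and 4.99 in CPEB4 KO animal 2, 5.07 and 5.04 in CPEB4 GT/+ animals, and 4.99 and 5.09 in WT animals. Albumin (Alb) read 12.08 and 6.14 in CPEB4 KO animals, 6.35 and 6.28 in CPEB4 GT/+ animals, and 6.23 and 6.26 in WT animals. The apolipoprotein gene Apoa2 read 12.09 and 6.90 in CPEB4 KO animals, against 6.89 and 7.02 in WT animals. The other 3 genes of the list stayed under that margin. Cyp3a11 read 4.93 and 4.19 in CPEB4 KO animals, against 4.15 and 4.15 in WT animals, and the urea cycle gene Otc read 5.31 in CPEB4 KO animal 1, against 4.38 to 4.52 on the other 5 INPUT arrays, so both were also highest on that array. Cyp7a1, the rate-limiting enzyme of bile acid synthesis, read 4.39 and 4.29 in CPEB4 KO animals, against 4.22 and 4.36 in WT animals. The WASH and ELUTED arrays of the same animal had list medians of 4.93 and 5.12, at the level of the other animals. The medians of gene lists and the genes with the smallest p are therefore given also for CPEB4 KO animal 2 alone, whose single array is then assumed to vary like the others in a test. The median of all genes was 0.06 in that animal.

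**Figure D1:**
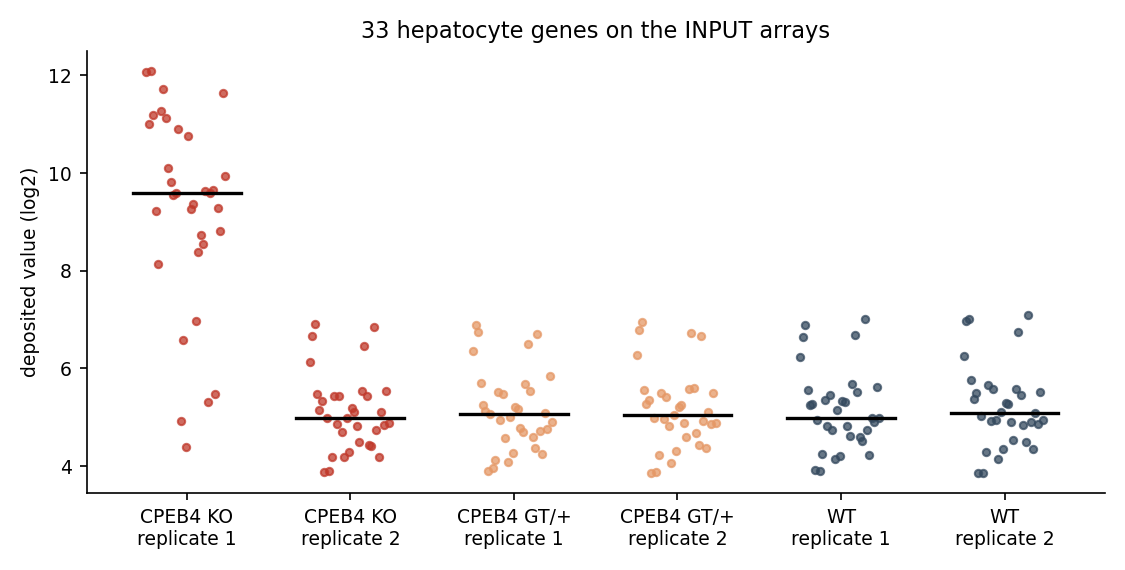
Each column is one INPUT array and each point one of 33 hepatocyte genes, on the log2 intensity scale of the y axis; bars mark medians. The median is 9.59 on the array of CPEB4 KO animal 1 and between 4.99 and 5.09 on the other 5.

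This array shapes the list of large differences. A mean difference of at least 0.58 log2 units (about 1.5-fold) upward was found for 214 genes, 1.67% of those kept. It was as large in CPEB4 KO animal 2 alone for 40 of them, and under 0.2 there for 110. All 23 hepatocyte genes that passed the intensity filter were among the 214. The filter took the mean over the 6 INPUT arrays, so a gene high only on this array could pass through it. Serpina1b, for example, read 11.72 there, against 4.94 to 5.07 on the other INPUT arrays. That these genes were among the 214 was therefore largely fixed by the filter and by the choice of the list. In the other direction 15 genes (0.117%) were at least 0.58 lower, 14 of them also in CPEB4 KO animal 2 alone, and in all 15 the CPEB4 KO animals lay below the WT animals. The insulin-like growth factor Igf1, which both liver and brain make, read 10.76 and 8.08 in CPEB4 KO animals, against 7.61 and 7.70 in WT animals. The same pattern held for the iron carrier transferrin (Trf), with 12.01 and 10.81 in CPEB4 KO animals and 10.77 and 10.76 in WT animals. Neither gene passed the test (adjusted p = 0.457 and 0.509, limma). The part of liver transcripts in these values was not tested.

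**Figure D2:**
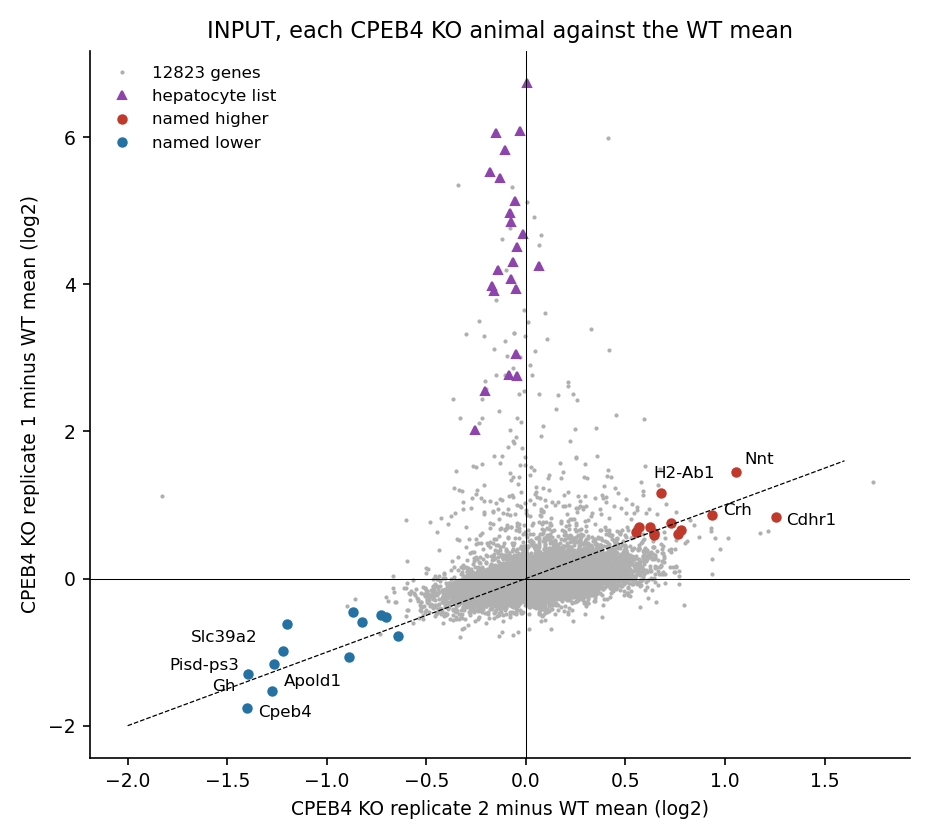
Each point is one of 12823 genes, placed by its INPUT level minus the WT mean in CPEB4 KO animal 2 (x axis, log2) and in CPEB4 KO animal 1 (y axis, log2); the dashed line marks equal values. Cpeb4, Apold1 and Pisd-ps3 lie far down near that line, and the hepatocyte genes lie high on the y axis near 0 on the x axis.

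The limma test called 3 of 12823 genes (0.0234%), all lower in CPEB4 KO: Cpeb4, the targeted gene; Apold1, an early response gene of endothelial cells; and Pisd-ps3, a transcribed pseudogene related to the phosphatidylserine decarboxylase gene Pisd. No gene was called higher. Without an adjustment for multiple tests, 906 genes (7.07%) were higher and 472 (3.68%) lower at p under 0.05, and the median difference over all genes was 0.03. That split depended on how the arrays were scaled. It was 601 higher and 578 lower after quantile normalization, 352 and 1372 with each array centred on its median, and 1858 and 30 when the spiked hybridisation controls were used to align arrays. The number of called genes also rested on single animals. It was 5 without CPEB4 KO animal 1, 311 without CPEB4 KO animal 2 (300 of them higher) and 0 when any 1 of the WT or CPEB4 GT/+ animals was left out (778 to 1185 at an unadjusted p under 0.05, limma).

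Cpeb4 read 6.55 and 6.92 in CPEB4 KO animals, 7.38 and 7.13 in CPEB4 GT/+ animals, and 8.30 and 8.33 in WT animals. The 3 genotypes did not overlap, and the CPEB4 GT/+ animals lay between the others. Cpeb4 fell by 1.58 log2 units (SE 0.14, adjusted p = 0.0457, limma), with -1.40 in CPEB4 KO animal 2 alone (adjusted p = 0.0322, limma). The other 2 probe sets gave differences of -1.12 and -0.96; the weaker had 4.88 and 5.15 in CPEB4 KO animals, against 5.94 and 6.01 in WT animals. The same direction was seen in the tail fractions, at -1.30 in WASH (adjusted p = 0.0046, limma) and -0.90 in ELUTED (adjusted p = 0.841, limma). Where these probes lie relative to the modified part of the gene is not given in the sources used here, so the remaining signal says nothing on whether an intact transcript is made.

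Apold1 read 7.69 and 7.93 in CPEB4 KO animals, 9.05 and 9.02 in CPEB4 GT/+ animals, and 9.35 and 9.07 in WT animals. Only the CPEB4 KO animals stood low, more than 1 log2 unit below every other animal. It fell by 1.40 log2 units (SE 0.13, adjusted p = 0.0457, limma), with -1.28 in CPEB4 KO animal 2 alone. It recurred in both tail fractions of the same animals. In WASH Apold1 read 7.84 and 8.32 in CPEB4 KO animals, against 9.68 and 9.51 in WT animals (-1.52, adjusted p = 0.0046, limma). In ELUTED it read 7.22 and 7.19 in CPEB4 KO animals, against 9.15 and 9.12 in WT animals (-1.92, adjusted p = 0.0261, limma; 1 gene called, 0.0078%, and 0 without any 1 of the 4 animals, with 196 to 587 at an unadjusted p under 0.05). One probe set reports the gene, so no second probe set could be compared.

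Pisd-ps3 read 10.23 and 10.13 in CPEB4 KO animals, 11.30 and 11.36 in CPEB4 GT/+ animals, and 11.53 and 11.26 in WT animals. Here too the CPEB4 GT/+ animals sat with the WT animals and the CPEB4 KO animals apart from them. It fell by 1.22 (SE 0.12, adjusted p = 0.0457, limma), with -1.27 in CPEB4 KO animal 2 alone, and its 3 probe sets gave -1.22, -1.19 and -1.66. The differences in the fractions were -1.32 in WASH (adjusted p = 0.0018, limma) and -1.31 in ELUTED (adjusted p = 0.203, limma). Pisd itself, which makes phosphatidylethanolamine in mitochondria, read 8.22 and 8.33 in CPEB4 KO animals, against 8.38 and 8.00 in WT animals, a difference of 0.08 (adjusted p = 0.836, limma). The pseudogene resembles Pisd in sequence, so how the probes divide their signal among such copies is uncertain. With WASH and ELUTED averaged per animal, which leaves out the INPUT arrays, 2 genes were called (0.0156%), and they were Apold1 (-1.72, adjusted p = 0.00188, limma) and Pisd-ps3 (-1.32, adjusted p = 0.00247, limma).

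**Figure D3:**
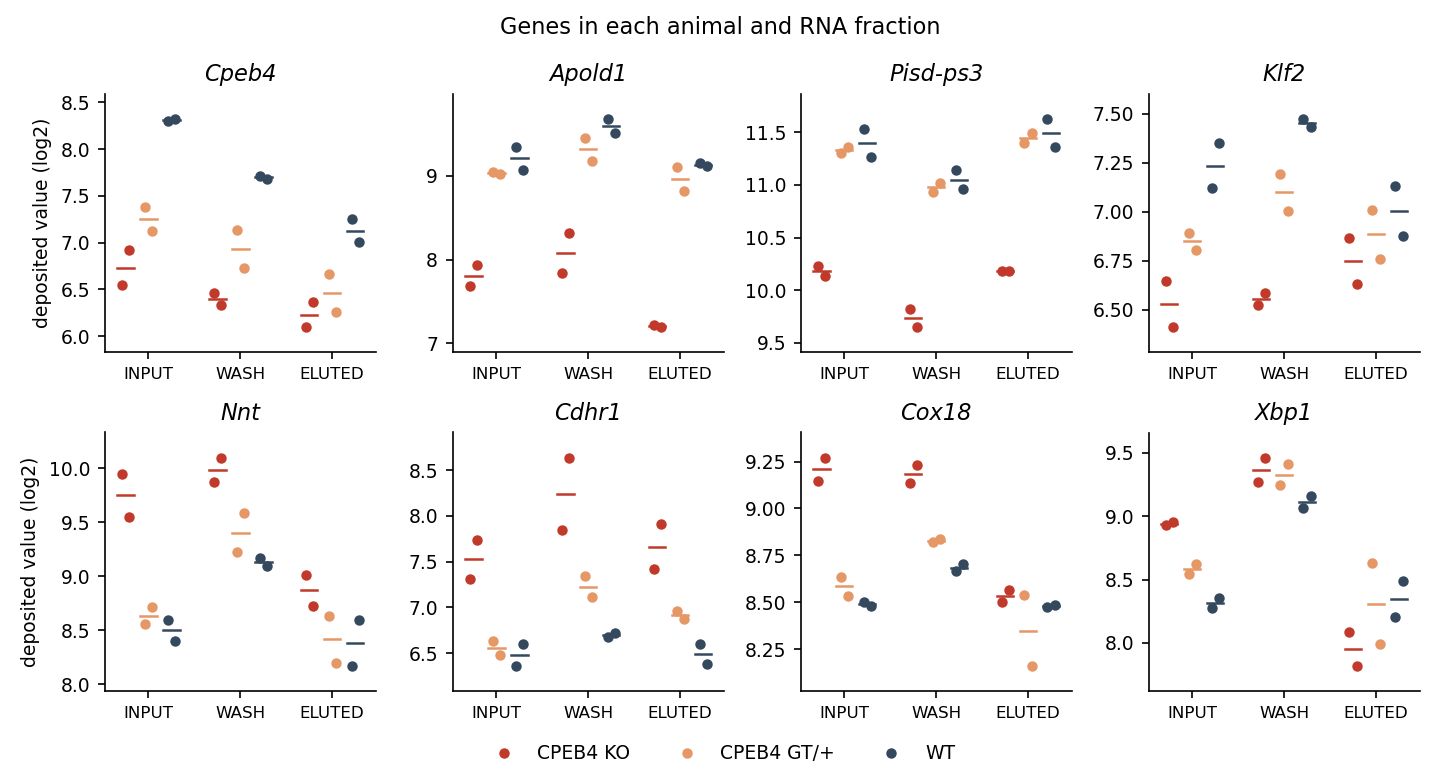
Log2 levels (y axis) of 8 genes in each fraction (x axis), with CPEB4 KO, CPEB4 GT/+ and WT animals as separate points and lines at the group means. Apold1 and Pisd-ps3 are lowest in the CPEB4 KO animals in all 3 fractions, and the CPEB4 KO mean of Xbp1 is above WT in INPUT (0.63) and below it in ELUTED (-0.40).

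The other 9 of the 12 lower genes that the naming rule gives (the smallest p among genes whose animals did not overlap and whose difference was at least 0.58) did not pass the adjusted threshold. Slc39a2, a zinc transporter of the ZIP family, read 7.16 and 6.91 in CPEB4 KO animals, 7.99 and 8.14 in CPEB4 GT/+ animals, and 8.17 and 8.10 in WT animals (-1.10, adjusted p = 0.0726, limma). In CPEB4 KO animal 2 alone it was called, at -1.22 (adjusted p = 0.0322, limma). Adam1a, a membrane protein of the ADAM family known from sperm, read 6.19 and 6.37 in CPEB4 KO animals, against 7.33 and 7.19 in WT animals (-0.98, adjusted p = 0.0749, limma; -0.89 in CPEB4 KO animal 2 alone). Both genes stood lower in every CPEB4 KO animal than in any other animal, but their differences in WASH were smaller, -0.57 for Slc39a2 and -0.31 for Adam1a. Klf2, the transcription factor that endothelial cells make under blood flow, read 6.64 and 6.41 in CPEB4 KO animals, 6.89 and 6.81 in CPEB4 GT/+ animals, and 7.12 and 7.35 in WT animals. Its INPUT difference of -0.71 (-0.82 in CPEB4 KO animal 2 alone) did not pass (adjusted p = 0.276, limma), and its WASH difference of -0.90 did (adjusted p = 0.0123, limma). Growth hormone (Gh), a product of the pituitary, read 5.92 and 5.83 in CPEB4 KO animals, 5.83 and 6.44 in CPEB4 GT/+ animals, and 7.59 and 6.86 in WT animals, so that only the WT animals stood above the highest nonspecific control. Ccl21b, a chemokine that attracts lymphocytes and that has near-identical copies in the mouse genome, read 8.71 and 8.13 in CPEB4 KO animals, against 9.18 and 9.47 in WT animals. Which copy these values report is uncertain. The TNF receptor family gene Tnfrsf18 (-0.61) and the less studied transcripts 4930447C04Rik (-0.71), D130007C19Rik (-0.61) and Gm2824 (-0.66) complete the set.

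No member of the 12 higher genes passed the test on both animals. By the naming rule, all 12 lay higher in each CPEB4 KO animal than in each WT animal. The smallest p among them belonged to 2 mitochondrial genes. Nnt, the inner-membrane transhydrogenase that supplies mitochondrial NADPH, read 9.95 and 9.55 in CPEB4 KO animals, 8.56 and 8.71 in CPEB4 GT/+ animals, and 8.59 and 8.40 in WT animals. The CPEB4 KO animals stood clear of the rest (1.25, SE 0.15, adjusted p = 0.107, limma; 1.06 in CPEB4 KO animal 2 alone). A second probe set of Nnt gave 1.03. The gene is known to be partly deleted in the C57BL/6J strain and intact in other strains; the strains here are not given, and their part in this value was not tested. Averaged over the 3 fractions of each animal, Nnt was called at 0.87, beside Apold1, Pisd-ps3 and Cpeb4 (4 genes, 0.0312%; 7 genes without CPEB4 KO animal 1, 100 without CPEB4 KO animal 2, and 2 without either WT animal). Cox18, which inserts a cytochrome oxidase subunit into the inner membrane, read 9.14 and 9.27 in CPEB4 KO animals, 8.63 and 8.54 in CPEB4 GT/+ animals, and 8.50 and 8.48 in WT animals (0.72, adjusted p = 0.203, limma).

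Cdhr1, a cadherin of photoreceptors that is also found in mitral cells of the olfactory bulb, read 7.31 and 7.74 in CPEB4 KO animals, 6.64 and 6.48 in CPEB4 GT/+ animals, and 6.36 and 6.60 in WT animals (1.05, adjusted p = 0.276, limma). It was the 1 gene called higher in CPEB4 KO animal 2 alone (1.26, adjusted p = 0.0322, limma), among 5 calls (0.039%). It rose in WASH by 1.54 (adjusted p = 0.0212, limma; 8 genes called, 0.0624%; 3 without CPEB4 KO animal 1, 1 without CPEB4 KO animal 2, and 4 and 11 without WT animals 1 and 2). The olfactory bulb list, to which Cdhr1 belongs, had a median of -0.08 in CPEB4 KO animal 1 and 0.35 in CPEB4 KO animal 2 over 6 genes kept, with 4 of 6 above the WT mean in CPEB4 KO animal 2 (61.5% of all genes). Doc2g read 6.83 and 7.31 in CPEB4 KO animals, against 6.81 and 6.66 in WT animals, while Th read 7.21 and 8.02 against 8.35 and 7.44. Eomes, a mitral cell transcription factor that was below the intensity filter, read 5.37 and 6.79 in WASH of CPEB4 KO animals, against 5.43 and 5.34 in WASH of WT animals. Between the CPEB4 KO animals the list stood higher where Cdhr1 was higher. Between the WT animals it did not. The list median was 0.27 in WT animal 1 and -0.27 in WT animal 2, and Cdhr1 was lower in WT animal 1. The part of olfactory bulb tissue in the value of Cdhr1 was not tested. Crh, the corticotropin-releasing hormone made by cortical interneurons, read 8.38 and 8.45 in CPEB4 KO animals, 7.90 and 7.75 in CPEB4 GT/+ animals, and 7.36 and 7.67 in WT animals (0.90, adjusted p = 0.226, limma).

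The other 8 higher genes had differences of 0.60 to 0.92. Xbp1, the transcription factor activated by the ER stress sensor IRE1, is described with the ER genes. Prdx4, the peroxiredoxin of the ER, read 7.28 and 7.21 in CPEB4 KO animals, against 6.68 and 6.49 in WT animals (0.66). Idh1, the cytosolic NADPH-producing isocitrate dehydrogenase, read 9.31 and 9.37 in CPEB4 KO animals, against 8.82 and 8.63 in WT animals (0.62). Fdps, farnesyl diphosphate synthase of the mevalonate pathway, read 8.29 and 8.20 in CPEB4 KO animals, against 7.60 and 7.70 in WT animals (0.60). The remainder were Phlda1 (0.74), the purine enzyme Pnp (0.68), the endothelial GTPase Rhoj (0.63) and the MHC class II chain H2-Ab1 (0.92). Each had an adjusted p of 0.276 (limma), other than Xbp1 at 0.266. In CPEB4 KO animal 2 alone the 12 higher genes ran from 0.55 for Fdps to 1.26 for Cdhr1.

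Genes of the ER lay mostly above WT in INPUT, by small amounts. Over 4 lists (ER chaperones and folding enzymes, ER-associated degradation, translocation into the ER, and UPR sensors with their transcription factors) 57 of 66 genes had a mean above WT, against 57.2% of all genes. In 39 the CPEB4 KO animals did not overlap with and lay above the WT animals (24.6% of all genes), and in 4 they lay below (18.4%). The median difference was 0.15, against 0.03 over all genes, and 19 genes were higher and 0 lower at an unadjusted p under 0.05 (limma; 7.07% and 3.68% of all genes). No member was called after adjustment. In CPEB4 KO animal 1 the median was 0.14 and in CPEB4 KO animal 2 alone 0.13, against -0.01 and 0.06 over all genes on the same arrays. CPEB4 KO animal 2 alone had 57 genes above the WT mean (61.5% of all genes), 13 higher at an unadjusted p under 0.05 (10.3%) and 1 lower (3.57%). The part of liver transcripts in the values of CPEB4 KO animal 1 was not tested. With the scaling changed, 47 (quantile), 46 (centred) and 65 (aligned on controls) of 66 were above 0, and 49, 54 and 54 were above the median of all genes.

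Several promoters of these genes carry the ER stress response element (ERSE), which is known to bind the factors NF-Y and ATF6 and was defined on ER chaperone genes. They are shown because Xbp1 and ATF6, the transcription factors of the UPR, act through such elements. Each is the 220 bases before the RefSeq start (GRCm38.p6), written on the strand of the gene. Capitals mark a match to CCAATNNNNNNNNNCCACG on either strand or, in Herpud1, to the related ERSE-II (ATTGG and CCACG with 1 base between them). The windows are chr2:34771870-34772089 (plus strand) for Hspa5, chr8:84846932-84847151 (minus) for Calr, chr10:86705445-86705664 (minus) for Hsp90b1, chr11:50325674-50325893 (minus) for Canx and chr8:94386209-94386428 (plus) for Herpud1.
Hspa5: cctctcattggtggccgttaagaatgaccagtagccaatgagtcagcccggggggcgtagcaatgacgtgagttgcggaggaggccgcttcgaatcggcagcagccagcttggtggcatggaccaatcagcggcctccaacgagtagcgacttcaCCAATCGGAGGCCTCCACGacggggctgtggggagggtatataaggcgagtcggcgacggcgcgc
Calr: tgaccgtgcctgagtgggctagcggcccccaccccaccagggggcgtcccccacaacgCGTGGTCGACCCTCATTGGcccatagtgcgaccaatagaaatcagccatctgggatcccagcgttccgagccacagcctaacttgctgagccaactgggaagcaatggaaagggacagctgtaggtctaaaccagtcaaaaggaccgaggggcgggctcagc
Hsp90b1: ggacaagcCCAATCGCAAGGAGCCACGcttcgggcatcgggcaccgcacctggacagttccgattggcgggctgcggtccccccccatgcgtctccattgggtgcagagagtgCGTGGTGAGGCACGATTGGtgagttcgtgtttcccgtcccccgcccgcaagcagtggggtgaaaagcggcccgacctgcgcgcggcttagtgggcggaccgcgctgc
Canx: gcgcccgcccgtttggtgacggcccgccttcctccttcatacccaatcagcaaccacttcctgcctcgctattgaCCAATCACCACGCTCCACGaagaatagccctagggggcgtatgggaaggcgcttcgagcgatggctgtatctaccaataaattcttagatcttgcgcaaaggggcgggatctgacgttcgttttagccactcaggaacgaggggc
Herpud1: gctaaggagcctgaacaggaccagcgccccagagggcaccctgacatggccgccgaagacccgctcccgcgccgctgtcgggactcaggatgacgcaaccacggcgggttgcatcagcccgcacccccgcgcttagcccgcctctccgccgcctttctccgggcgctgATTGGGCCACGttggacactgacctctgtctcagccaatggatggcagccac
The element of Hspa5 lies 65 to 47 bases before the start, that of Calr 162 to 144 on the opposite strand, and that of Canx 145 to 127. Hsp90b1 holds a pair, 212 to 194 on the same strand and 107 to 89 on the opposite one. The ERSE-II of Herpud1 lies 52 to 42 bases before the start. ERSE letters were found in 8 of 19 ER chaperone genes with a promoter in the table (42.1%), in 10 of 54 genes of the 4 lists (18.5%) and in 37 of 27025 genes overall (0.137%). ERSE-II letters were in 2 of 54 (3.7%) and 12 of 27025 (0.0444%). The 12 genes of the lists with either element had a median INPUT difference of 0.25, between -0.09 and 0.53. In 10 of them the CPEB4 KO animals lay above the WT animals and in 1 below (24.6% and 18.4% of all genes). With ERSE alone, the 10 genes of the lists had a median of 0.18, 9 of them above 0 (57.2% of all genes). The 8 kept genes with an ERSE outside the lists had a median of -0.06, 3 of them above 0. A match describes the letters of a window and does not show that a factor binds there.

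Among the sensors and factors, Xbp1 read 8.93 and 8.95 in CPEB4 KO animals, 8.54 and 8.63 in CPEB4 GT/+ animals, and 8.27 and 8.35 in WT animals (0.63, SE 0.09, adjusted p = 0.266, limma). The 3 genotypes did not overlap, CPEB4 KO animal 2 alone gave 0.64, and the 4 probe sets gave 0.39 to 0.63 with no overlap in any. The arrays do not tell the spliced from the unspliced form. Ern1, which encodes IRE1, read 7.16 and 6.95 in CPEB4 KO animals, against 7.37 and 7.26 in WT animals (-0.26), while a second probe set of Ern1 read 7.19 and 6.97 against 6.98 and 6.71 (0.24), so its probe sets disagree in direction. Creb3l2, an ER-anchored relative of ATF6, read 7.32 and 7.19 against 6.96 and 6.79 (0.38). Atf4, the factor translated downstream of the sensor PERK, read 8.98 and 9.05 in CPEB4 KO animals, against 9.12 and 9.15 in WT animals. The target genes of that arm had a median difference of 0.00 over 16 genes, with 8 above 0 (57.2% of all genes), and 1 above and 3 below WT without overlap (24.6% and 18.4%). In CPEB4 KO animal 2 the median was -0.02. Ddit4, a stress-induced inhibitor of mTOR, differed by -0.28.

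Of 22 chaperones and folding enzymes, 15 lay above and 1 below WT without overlap (24.6% and 18.4% of all genes). The median was 0.17 on both animals and 0.16 in CPEB4 KO animal 2 alone. Hspa5, the major ER chaperone BiP, read 9.23 and 9.22 in CPEB4 KO animals, against 8.90 and 8.97 in WT animals (0.29). Calr, the calcium-binding lectin chaperone calreticulin, read 11.04 and 10.85 in CPEB4 KO animals, against 10.51 and 10.49 in WT animals (0.45). The secreted ER stress factor Manf read 10.39 and 10.49 in CPEB4 KO animals, against 10.05 and 10.05 in WT animals (0.39). Those 3 genes lay above both WT animals in each CPEB4 KO animal. Calr stood farther above WT in CPEB4 KO animal 1, and its difference in CPEB4 KO animal 2 alone was 0.35. Sdf2l1 (0.44) and Dnajb11 (0.29), which work with BiP, also lay above both WT animals in each CPEB4 KO animal. Canx, the membrane-bound partner of calreticulin, read 11.21 and 11.30 in CPEB4 KO animals, against 11.13 and 10.94 in WT animals (0.22), while Hsp90b1 (GRP94) differed by 0.13. The adjusted p of these 7 genes was 0.382 or higher (limma).

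Of 16 genes of ER-associated degradation, which returns misfolded proteins to the cytosol, 10 lay above and 1 below WT without overlap (24.6% and 18.4% of all genes). Their median was 0.27 in CPEB4 KO animal 1 and 0.12 in CPEB4 KO animal 2, so it was larger on the array with hepatocyte transcripts. Herpud1 read 9.91 and 9.34 in CPEB4 KO animals, against 9.16 and 9.04 in WT animals (0.53, and 0.24 in CPEB4 KO animal 2 alone). Derl2, a membrane protein of the exit route, read 8.80 and 8.26 in CPEB4 KO animals, 8.22 and 7.57 in CPEB4 GT/+ animals, and 7.83 and 7.52 in WT animals (0.86, and 0.59 in CPEB4 KO animal 2 alone). For this gene the CPEB4 GT/+ animals lay below both CPEB4 KO animals and overlapped with the WT animals. Sel1l, the scaffold of the ubiquitin ligase HRD1, differed by 0.08. Of 16 translocation genes, 9 lay above WT without overlap and 0 below (24.6% and 18.4% of all genes), with a median of 0.15 on both animals and 0.18 in CPEB4 KO animal 2. Sec62, a component of the translocon, read 10.05 and 9.72 in CPEB4 KO animals, against 9.38 and 8.83 in WT animals (0.78), and Sec61a1, its channel subunit, read 10.43 and 9.92 against 9.58 and 9.85 (0.46, and 0.20 in CPEB4 KO animal 2 alone). The signal peptidase subunit Spcs1 differed by 0.04.

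The ER genes were also measured in the tail fractions of the same animals. In WASH the median of the 66 genes was 0.11 with 55 above 0 (59.5% of all genes), and in ELUTED -0.09 with 16 above 0 (48.6% of all genes). Xbp1 differed by 0.25 in WASH and -0.40 in ELUTED. Whether the INPUT differences and the fraction differences of these genes differ from each other was not tested.

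**Figure D4:**
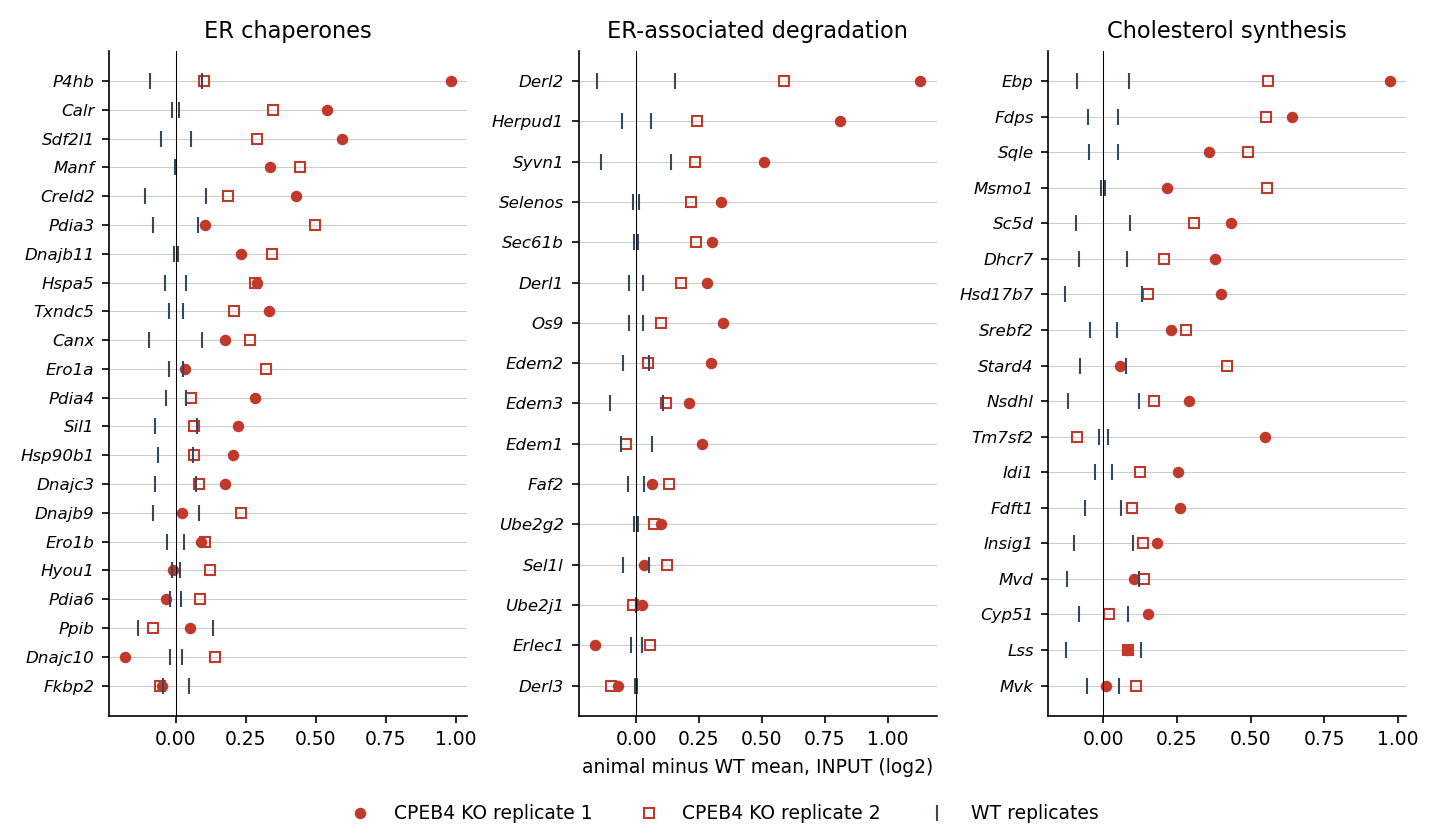
INPUT log2 difference from the WT mean (x axis) for members of the chaperone, ER-associated degradation and cholesterol synthesis lists (y axis), with points for CPEB4 KO animals 1 and 2 and ticks for the WT animals. Most members lie to the right of both WT ticks, and Herpud1, Derl2 and Ebp lie farther right in CPEB4 KO animal 1 than in CPEB4 KO animal 2.

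Cholesterol synthesis genes, which neurons and glia use because blood lipoproteins hardly enter the brain, lay above WT in INPUT. All 18 genes kept had a mean above WT (57.2% of all genes), 12 without overlap (24.6%), and 7 were higher and 0 lower at an unadjusted p under 0.05 (limma; 7.07% and 3.68%). The median was 0.24 on both animals, 0.26 in CPEB4 KO animal 1 and 0.16 in CPEB4 KO animal 2, in which 17 of 18 were above 0 (61.5% of all genes). It was thus larger on the array with hepatocyte transcripts, and the part of liver transcripts in these values was not tested. After centring each array on its median 15 of 18 stayed above 0, after quantile normalization 17, and after alignment on controls 18. The last of these moved the median of all genes to 0.16, so most genes lay above 0 there. Above the median of all genes were 18 (centred), 17 (quantile) and 18 (aligned). Centring and alignment shift whole arrays and leave the place of a gene relative to that median unchanged. Ebp, a sterol isomerase, read 8.81 and 8.39 in CPEB4 KO animals, 8.15 and 7.81 in CPEB4 GT/+ animals, and 7.92 and 7.75 in WT animals (0.77, adjusted p = 0.36, limma). Sqle, the epoxidase that begins the sterol-specific steps, read 8.06 and 8.19 in CPEB4 KO animals, against 7.75 and 7.65 in WT animals (0.43). Sc5d, a desaturase near the end of the route, read 9.30 and 9.18 in CPEB4 KO animals, against 8.96 and 8.78 in WT animals (0.37). The feedback regulator Insig1 differed by 0.16 and Cyp51 by 0.09. In WASH the median of the list was 0.16 with 12 of 18 above 0 (59.5% of all genes), and in ELUTED -0.07 with 8 of 18 above 0 (48.6% of all genes).

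The differences of Nnt and Cox18 were larger than those of most other mitochondrial genes measured. That follows from the naming rule, which took differences of at least 0.58. Of 12 mitochondrial redox genes, 11 had a mean above WT (57.2% of all genes), 7 without overlap (24.6%), with a median of 0.15 on both animals and 0.13 in CPEB4 KO animal 2. The glutathione peroxidase Gpx1 read 11.49 and 10.81 in CPEB4 KO animals, against 10.65 and 10.57 in WT animals, and was higher mainly in CPEB4 KO animal 1. Gpx4 differed by -0.01. Of 14 cytochrome oxidase assembly genes, 4 lay above WT without overlap, near the 24.6% of all genes, and the median was 0.09 on both animals and 0.16 in CPEB4 KO animal 2. Cox10 read 7.08 and 7.40 in CPEB4 KO animals, against 6.91 and 6.87 in WT animals (0.35). Oxidative phosphorylation subunits had a median of 0.07 over 56 genes (0.09 in CPEB4 KO animal 2), and cytosolic ribosomal proteins 0.05 over 53 (0.00 in CPEB4 KO animal 2). In ELUTED those medians were -0.66 and -0.72.

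The machinery of the poly(A) tail was measured with 34 genes, including Cpeb4 itself. Of them 26 had a mean above WT (57.2% of all genes), 15 lay above and 4 below WT without overlap (24.6% and 18.4%), and the median was 0.10 on both animals and 0.13 in CPEB4 KO animal 2. Btg1, which recruits deadenylases, read 8.73 and 8.82 in CPEB4 KO animals, 8.53 and 8.34 in CPEB4 GT/+ animals, and 8.37 and 8.11 in WT animals (0.54, adjusted p = 0.36, limma; 0.58 in CPEB4 KO animal 2 alone). Cpeb2, a paralog of Cpeb4 with a closely related RNA-binding domain, read 9.05 and 9.30 in CPEB4 KO animals, 8.93 and 9.13 in CPEB4 GT/+ animals, and 8.72 and 8.77 in WT animals (0.43, adjusted p = 0.411, limma; 0.55 in CPEB4 KO animal 2 alone). Its WASH difference was 0.55 and its ELUTED difference 0.17. The other paralogs, named as the rest of the family and after their values were seen, differed by 0.25 (Cpeb1) and 0.08 (Cpeb3). Pabpn1, the nuclear poly(A)-binding protein, differed by -0.07.

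Synaptic genes had medians near that of all genes. The presynaptic list had a median of 0.02 over 18 genes, with 1 above and 2 below WT without overlap, and the postsynaptic list 0.00 over 19, with 2 above and 2 below (24.6% above and 18.4% below among all genes). In CPEB4 KO animal 2 those medians were 0.08 and 0.03. Shank1, a scaffold of the postsynaptic density, read 9.74 and 9.66 in CPEB4 KO animals, against 9.14 and 9.43 in WT animals (0.41), and the adhesion protein Nlgn1 read 7.40 and 7.59 against 8.16 and 7.76 (-0.46). Neither passed (adjusted p = 0.411 and 0.425, limma). The autism risk list, with 33 genes measured, had a median of 0.03 (0.07 in CPEB4 KO animal 2), with 6 genes above and 7 below WT without overlap, near the shares of all genes (24.6% and 18.4%), and 1 gene at an unadjusted p under 0.05 (10.7% of all genes). Tbr1, a transcription factor of deep cortical layers on that list, read 8.88 and 9.20 in CPEB4 KO animals, 9.05 and 9.14 in CPEB4 GT/+ animals, and 8.66 and 8.83 in WT animals. Among the most abundant synaptic genes, Snap25 differed by -0.05 and Gria1 by -0.04.

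Markers of the cell types of cortex and striatum were present in all animals, and no cell type list had a median difference beyond 0.22. That largest median, of the mural and leptomeningeal list, exceeded the 0.15 of the 4 ER lists together. Cortical excitatory neuron genes had a median of 0.11 over 17 genes, which was -0.01 in CPEB4 KO animal 1 and 0.27 in CPEB4 KO animal 2. Among them the layer gene Rorb read 7.56 and 7.70 in CPEB4 KO animals, against 7.40 and 7.22 in WT animals. Striatal projection neuron genes had a median of 0.06 over 16 (0.09 in CPEB4 KO animal 2), with the peptide gene Tac1 at 8.98 and 9.31 in CPEB4 KO animals and 8.86 and 8.32 in WT animals, and Rgs9 at 9.18 and 9.09 against 9.37 and 9.42. Interneuron genes had a median of 0.12 over 17 (0.16 in CPEB4 KO animal 2). The peptide gene Vip read 8.72 and 8.97 in CPEB4 KO animals, 8.71 and 8.86 in CPEB4 GT/+ animals, and 8.41 and 8.44 in WT animals (0.42). The 18 neuropeptide genes, which include Crh, Vip and Tac1, had a median of 0.16 on both animals and 0.27 in CPEB4 KO animal 2, with 7 above and 0 below WT without overlap (24.6% and 18.4% of all genes). At an unadjusted p under 0.05, 5 were higher and 0 lower (limma, 7.07% and 3.68% of all genes).

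Glial lists had medians of 0.11 (astrocyte, 18 genes), 0.04 (oligodendrocyte and myelin, 17), 0.15 (oligodendrocyte precursor, 10) and 0.14 (microglia, 15), which were 0.12, 0.05, 0.14 and 0.15 in CPEB4 KO animal 2. Of the microglial genes, 10 lay above WT without overlap and 0 below (24.6% and 18.4% of all genes), and 4 were higher and 0 lower at an unadjusted p under 0.05 (limma, 7.07% and 3.68% of all genes). C1qb, a chain of the complement starter C1q, read 9.36 and 9.43 in CPEB4 KO animals, against 8.98 and 9.14 in WT animals (0.33). The astrocyte gene Aldh1l1 read 9.26 and 8.35 in CPEB4 KO animals, against 8.09 and 8.34 in WT animals. Liver also expresses it, and CPEB4 KO animal 2 lay next to the upper WT animal. Mural and leptomeningeal genes had a median of 0.22 over 14 (0.19 in CPEB4 KO animal 2). Of these, 6 were higher and 0 lower at an unadjusted p under 0.05 (limma, 7.07% and 3.68% of all genes). Rgs5, a pericyte gene, read 9.77 and 9.79 in CPEB4 KO animals, 9.46 and 9.38 in CPEB4 GT/+ animals, and 9.28 and 9.37 in WT animals. It differed by 0.45 (adjusted p = 0.342, limma), and by 0.46 in CPEB4 KO animal 2 alone. Endothelial genes had a median of 0.13 over 21, which was 0.16 in CPEB4 KO animal 1 and 0.07 in CPEB4 KO animal 2, where 12 of 21 were above 0 (61.5% of all genes). Of them 11 lay above and 3 below WT without overlap (24.6% and 18.4% of all genes). Ly6c1 read 8.84 and 8.79 in CPEB4 KO animals, 8.23 and 8.55 in CPEB4 GT/+ animals, and 8.22 and 8.22 in WT animals (0.60, adjusted p = 0.342, limma; 0.57 in CPEB4 KO animal 2 alone), whereas Apold1, on the same list, fell.

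**Figure D5:**
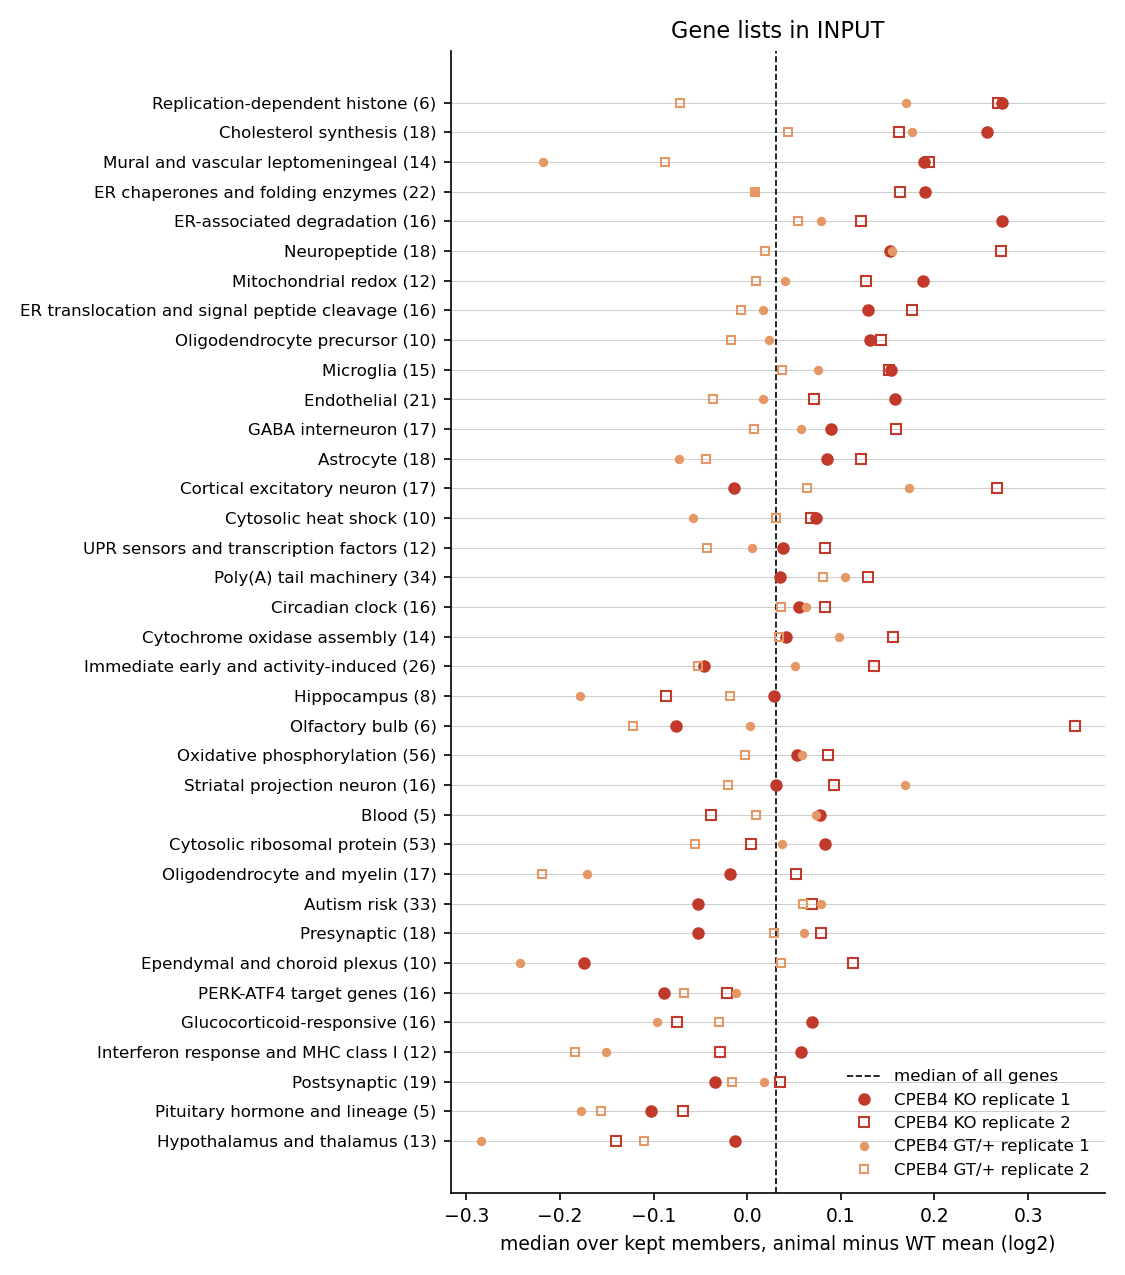
Median log2 difference from the WT mean (x axis) for each gene list (y axis), with 1 point for each of the CPEB4 KO and CPEB4 GT/+ animals; the dashed line is the median of all genes. The medians of the 4 ER lists and of the cholesterol and histone lists lie right of the dashed line in both CPEB4 KO animals. For the UPR sensors the distance is small in CPEB4 KO animal 1 (0.04, against 0.03). Several other lists also lie right of it in both, among them the mural, microglia, neuropeptide and mitochondrial redox lists. The medians of the synaptic lists lie close to the line.

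Apold1 and Klf2 belong to genes that endothelial cells regulate by blood flow, and a list of 12 such genes was put together after their values were seen. Of 11 kept, 3 lay above and 5 below WT without overlap (24.6% and 18.4% of all genes), and the median was -0.03 on both animals and -0.04 in CPEB4 KO animal 2. The 5 below include Apold1 and Klf2, whose low values prompted the list, so that choice raised their share. Klf4, the close relative of Klf2, read 6.66 and 6.72 in CPEB4 KO animals, 6.97 and 7.25 in CPEB4 GT/+ animals, and 7.11 and 7.18 in WT animals (-0.45). Ccn1, a matrix protein and early response gene, read 6.92 and 6.94 in CPEB4 KO animals, 7.78 and 7.38 in CPEB4 GT/+ animals, and 7.88 and 7.45 in WT animals (-0.74, adjusted p = 0.382, limma), with -0.70 in WASH and -0.72 in ELUTED. Both were lower in each CPEB4 KO animal than in any other animal. The list did not move one way. Thbd, the anticoagulant receptor thrombomodulin that KLF2 is known to induce, read 7.48 and 7.55 in CPEB4 KO animals, against 7.12 and 7.03 in WT animals (0.44), and Nos3, the endothelial nitric oxide synthase, differed by 0.29. Klf6 differed by -0.03 and Edn1 by -0.03.

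The list of immediate early and activity-induced genes, many of them markers of neuronal activity, had a median of 0.07 over 26 genes, which was -0.05 in CPEB4 KO animal 1 and 0.14 in CPEB4 KO animal 2. Of them 8 lay above and 5 below WT without overlap, near the shares of all genes (24.6% and 18.4%). At an unadjusted p under 0.05, 5 were higher and 2 lower (limma, 7.07% and 3.68% of all genes). Fosl2 (0.42), Fosb (0.33) and Arc (0.28) lay above WT, with adjusted p of 0.411, 0.427 and 0.431 (limma), and Egr1 differed by -0.06. Arc read 10.56 and 10.63 in CPEB4 KO animals, 10.26 and 10.38 in CPEB4 GT/+ animals, and 10.24 and 10.39 in WT animals.

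Genes next to Cpeb4 on chromosome 11 were examined because an engineered allele can affect or carry along its neighbours. Of the 30 nearest genes, 15 on each side, 8 were kept. Their differences ran between -0.18 and 0.29 with a median of -0.07, and 1 had an unadjusted p under 0.05 (limma). Snrnp25, a protein of the minor spliceosome, read 8.36 and 8.46 in CPEB4 KO animals, against 8.03 and 8.22 in WT animals (0.29), and lay above WT without overlap. Stc2 (-0.18), a secreted glycoprotein, the DNA repair enzyme Mpg (-0.18) and D630024D03Rik (-0.08) lay below.

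CPEB4 GT/+ animals were set against WT animals in the same fit. The limma test called 0 genes, and 423 (3.3%) had an unadjusted p under 0.05. Cpeb4 differed by -1.06 between CPEB4 GT/+ and WT animals. CPEB4 KO against CPEB4 GT/+ also gave 0 called genes, with 1018 (7.94%) at an unadjusted p under 0.05. These comparisons share animals with that of CPEB4 KO against WT.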

How the data were processed

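Each sample's 5 ng of RNA went through 21 cycles of amplification, per the labels' protocols, and biotin-labelled cDNA was hybridised to Affymetrix mouse arrays. The authors deposited log2 values made with RMA, per the submitters' processing notes; version and annotation are not given in the sources used here. RMA scales arrays to each other, so a change in total RNA was not measured. Of 45141 probe sets, 104 were controls, 28898 had 1 gene symbol and 551 several, which were not used. Genotype means of the 6 INPUT arrays were fitted with limma 3.58.1 in R 4.3.3 (3 residual degrees of freedom). WASH and ELUTED were fitted likewise. The fit was tested on simulated data. Named genes were Cpeb4, the 12 higher and 12 lower genes described in the report, and of each list up to 4 without overlap by p and up to 2 by level, plus neighbours of Cpeb4 without overlap. Members and lists were chosen with earlier results of these data known, and the hepatocyte and flow-responsive lists after these values were seen. Alternatives covered scaling, filter, choice of probe set, the fit and leaving out each animal. Replicate numbers did not pair the samples: same-numbered animals' deviations correlated at -0.04, -0.08 and -0.01. Promoters came from RefSeq (GRCm38.p6).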

Additional observations from a re-analysis of the deposited data

How the results depend on the processing

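The number of genes called in INPUT, 3, was 5 with the lowest 50% left out, 1 with the mean of a gene's probe sets, 6 with eBayes trend and robust, 6 with 18 arrays and the animal as a random block, and 100 (93 higher) with arrays aligned on the hybridisation controls, where the median of all genes was 0.16. It was 0 by limma without a filter (1749 at an unadjusted p under 0.05), with only the 4 arrays of CPEB4 KO and WT (1116), and with the probe set brightest over all 18 arrays, chosen after seeing the data (1404). Leaving out 1 animal gave 0 to 311. The WASH count of 8 was 5 without a filter, 3 with the lowest 50% left out and 1 to 11 without 1 animal; the ELUTED count of 1 was 0 without any 1 animal; the count of 4 for the mean of the 3 fractions was 2 to 100.

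With the replicate number as a block, 0 INPUT genes were called (limma, 1168 at an unadjusted p under 0.05), 9 in WASH, 1 in ELUTED and 2 in the mean of the fractions. Cpeb4 kept -1.58 there but not the call (adjusted p = 0.22, limma).

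Cpeb4 also kept -1.58 but lost the call without a filter (adjusted p = 0.111, limma) and with only 4 arrays (0.358), and had -1.22 with the mean of its probe sets (0.0965), -1.12 with the probe set brightest over 18 arrays (0.253), -1.10 in the mean of WASH and ELUTED, added later (0.0622), and -1.76 to -1.40 without 1 animal. Its adjusted p ran between 7.8e-05 and 0.473 over all alternatives. When WASH and ELUTED were averaged, Crh (-0.054), Xbp1 (-0.071), Prdx4 (-0.17), Pnp (-0.020) and H2-Ab1 (-0.031) lay below WT; the cause was not tested. All 24 higher and lower named genes kept their sign under quantile, centred and control-aligned scaling. They were chosen at a size of at least 0.58. The scalings moved the median of all genes from 0.03 to between -0.06 and 0.16, so these signs could hardly change.

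Precision is limited by 2 animals a group, by dim probe sets near the nonspecific controls and by 1 array with hepatocyte transcripts.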

Other observations

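Replication-dependent histone genes, whose mRNAs mostly lack poly(A) tails, had a median difference of 0.27 over the 6 of 7 measured genes that were kept, with 0.27 in CPEB4 KO animal 1 and 0.27 in CPEB4 KO animal 2. The linker histone gene H1f2 read 9.33 and 9.39 in CPEB4 KO animals, 8.87 and 9.26 in CPEB4 GT/+ animals, and 8.77 and 8.83 in WT animals (0.56, adjusted p = 0.382, limma). The most abundant of them, H3c1, differed by 0.08.

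Among circadian clock genes, the nuclear receptor gene Rora read 10.41 and 10.59 in CPEB4 KO animals, 10.46 and 10.59 in CPEB4 GT/+ animals, and 10.21 and 10.16 in WT animals (0.31). The list had a median of 0.09 over 16 genes (0.08 in CPEB4 KO animal 2). Zbtb16, a glucocorticoid-responsive transcription factor, read 9.70 and 9.54 in CPEB4 KO animals, 9.17 and 9.43 in CPEB4 GT/+ animals, and 8.96 and 9.17 in WT animals (0.55, adjusted p = 0.382, limma). Its list had a median of 0.00 over 16, with 0.07 in CPEB4 KO animal 1 and -0.08 in CPEB4 KO animal 2. Cytosolic heat shock genes had a median of 0.10 over 10 (0.07 in CPEB4 KO animal 2), and interferon and MHC class I genes 0.00 over 12 (-0.03 in CPEB4 KO animal 2).

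Some genes varied between animals of 1 genotype by more than between genotypes. Ttr, a transcript of choroid plexus and of liver, read 11.40 and 11.82 in CPEB4 KO animals, 7.84 and 11.48 in CPEB4 GT/+ animals, and 11.24 and 8.93 in WT animals. In CPEB4 KO animal 1 it read 9.39 in WASH and 8.34 in ELUTED, below its INPUT level as the hepatocyte genes of that animal did, and the part of liver transcripts was not tested. Calb2, a calcium-binding protein of interneurons and the olfactory bulb, read 8.99 and 9.22 in CPEB4 KO animals, 8.67 and 8.36 in CPEB4 GT/+ animals, and 9.19 and 8.04 in WT animals. Hypothalamic and thalamic genes had a median of -0.12 over 13 (-0.14 in CPEB4 KO animal 2). With arrays aligned on the controls it was 0.01, where the median of all genes was 0.16. Relative to the median of all genes the list stood at -0.16 under both scalings. Of the pituitary list, Pomc read 6.12 and 6.25 in CPEB4 KO animals, against 6.14 and 6.31 in WT animals, and Tshb differed by -0.09. Xist, which marks female cells, read 10.65 and 10.84 in CPEB4 KO animals, 10.71 and 10.90 in CPEB4 GT/+ animals, and 10.88 and 10.71 in WT animals. The Y-linked genes Eif2s3y, Kdm5d and Uty, below the intensity filter, read at most 4.77, 5.21 and 4.53 on any INPUT array. By these markers every animal read as female.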
